A study of Mus musculus with 6 samples.

Results

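The genes described here encode enzymes that conjugate, oxidise, reduce or hydrolyse aldehydes, carbonyls, epoxides, esters and foreign compounds. They were chosen by gene symbol among the protein-coding genes: the numbered Gst classes and Mgst, numbered Ugt genes, Sult, Aldh, Akr, Cbr1 to Cbr4, Nqo1 and Nqo2, Ephx, Fmo1 to Fmo5, numbered Ces genes and Adh1 to Adh7. This gave 144 genes of 55487 in the table. The rule used symbols and no expression value, but it was set with earlier results of these data known. RNA was sequenced in bulk from mouse lung tumour cells sorted as GFP positive and CD45 negative 11 weeks after tumour initiation. There were 3 libraries labelled sgLkb1, Lkb1 mutant, and 3 labelled sgNeo, Lkb1 wild type. All 6 were labelled as KP tumours, so both groups carry that background. Lkb1 is the product of Stk11, a kinase upstream of AMPK. The labels do not state the alleles, the promoter behind Cre or GFP, the age or sex of the mice, or whether libraries came from separate animals, so p-values measure the spread between these libraries, which may be technical.

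Such enzymes act in sequence. Flavin monooxygenases, carboxylesterases, epoxide hydrolases and the aldehyde, aldo-keto and carbonyl oxidoreductases expose or convert reactive groups, and glutathione, glucuronic acid or sulfate is then attached by the transferases so that the product can be exported. Several also act on the body's own molecules: some aldehyde dehydrogenases make retinoic acid from retinaldehyde. In lung these enzymes are known from club cells and alveolar type 2 cells, and part of the set is induced by the transcription factor NRF2 or by the aryl hydrocarbon receptor.

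Library totals were 29613678 to 41729299 counts in sgLkb1 and 26007503 to 28986526 counts in sgNeo. Stk11 was at 23.5, 25.6 and 25.3 CPM (counts scaled to a common library size) in sgLkb1, against 68.3, 33.4 and 82.7 CPM in sgNeo, so the groups did not overlap and transcript was present in every sgLkb1 library (edgeR log2 fold change -1.31 with SE 0.30, adjusted p = 0.023). Leaving out 1 library at a time, the call held only without sgNeo replicate 2, and the highest edgeR adjusted p was 0.0757. The 10 alveolar type 2 markers were all lower in sgLkb1, with a summed level of 12931 to 21223 CPM against 128692 to 151908 CPM in sgNeo, and none was at 0. Of the sets of markers of other cells, 3 of 7 alveolar type 1 markers were lower, 4 of 11 fibroblast, 1 of 5 tested mesothelial, 3 of 8 endothelial and 3 of 10 tested gastric and gut markers were higher, and 0 of 9 tested leukocyte and 0 of 7 ciliated cell markers were called either way by edgeR. Among all genes tested, edgeR called 7.05% higher and 8.60% lower.

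Of the 144 genes, 84 had enough counts to be tested, and 29 of these passed edgeR's adjusted threshold of 0.05, 9 higher and 20 lower in sgLkb1. The higher calls were 10.7% of the tested enzymes, against 7.05% of all 15978 genes tested and 7.78% of the protein-coding ones. The lower calls were 23.8%, against 8.60% of all genes tested and 9.28% of the protein-coding ones. The median log2 fold change over the 84 was -0.22, and over all genes tested it was 0.02. In 14 tested enzymes all sgLkb1 libraries lay above all sgNeo libraries (16.3% of all genes tested did), and in 28 they lay below (20.3% of all genes tested did). All 29 called enzymes were among these 42 without overlap, and 7 of the 9 higher and 19 of the 20 lower ones changed by a fold of 2 or more. Of the 60 enzymes not tested, 23 had no counts in any library and 37 had few, the highest value being 2.07 CPM for the sulfotransferase Sult1d1. Among the sulfotransferases 18 of 21 were not tested, among the Ugt glycosyltransferases 18 of 22, and among the carboxylesterases 14 of 19.

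**Figure D1:**
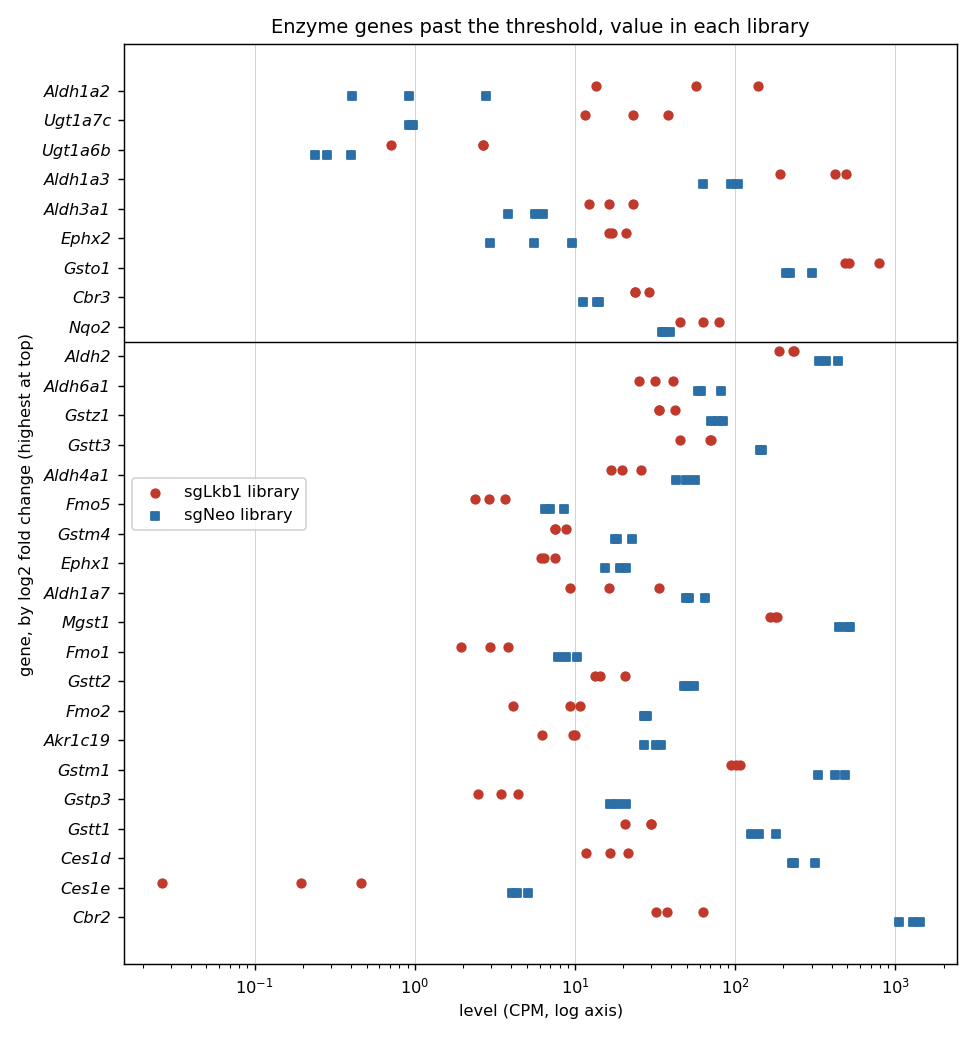
Level of the 29 enzyme genes that passed the threshold, in CPM on a log axis, with a point for each library and the sgLkb1 libraries drawn above the sgNeo libraries of the same gene. Genes are ordered by log2 fold change, the line parts the 9 higher from the 20 lower ones, and in each gene the sgLkb1 and sgNeo points do not overlap.

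The summed level of the 144 enzymes was lower in every sgLkb1 library than in any sgNeo library. It was 3866, 5127 and 4340.3 CPM in sgLkb1, against 6309, 5867 and 6765 CPM in sgNeo, a ratio of 0.704. Most of that difference was 1 gene. The carbonyl reductase Cbr2 made up 0.97%, 0.62% and 1.45% of the summed enzyme CPM in sgLkb1 libraries, against 22.4%, 17.9% and 19.1% in sgNeo libraries, without correction for gene length. Without Cbr2 the ratio was 0.869 and the groups overlapped, at 3829, 5095 and 4277 CPM in sgLkb1 against 4894, 4819 and 5472 CPM in sgNeo. On the scale of CPM per kilobase of exon, which allows levels of different genes to be compared, Cbr2 averaged 33.2 in sgLkb1 and 944 in sgNeo, where it was the highest of all these enzymes. Gsto1 had the highest level per kilobase in sgLkb1, with 295 against 120.4 in sgNeo, and the aldo-keto reductase Akr1a1 followed with 234 in sgLkb1 against 236 in sgNeo.

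**Figure D2:**
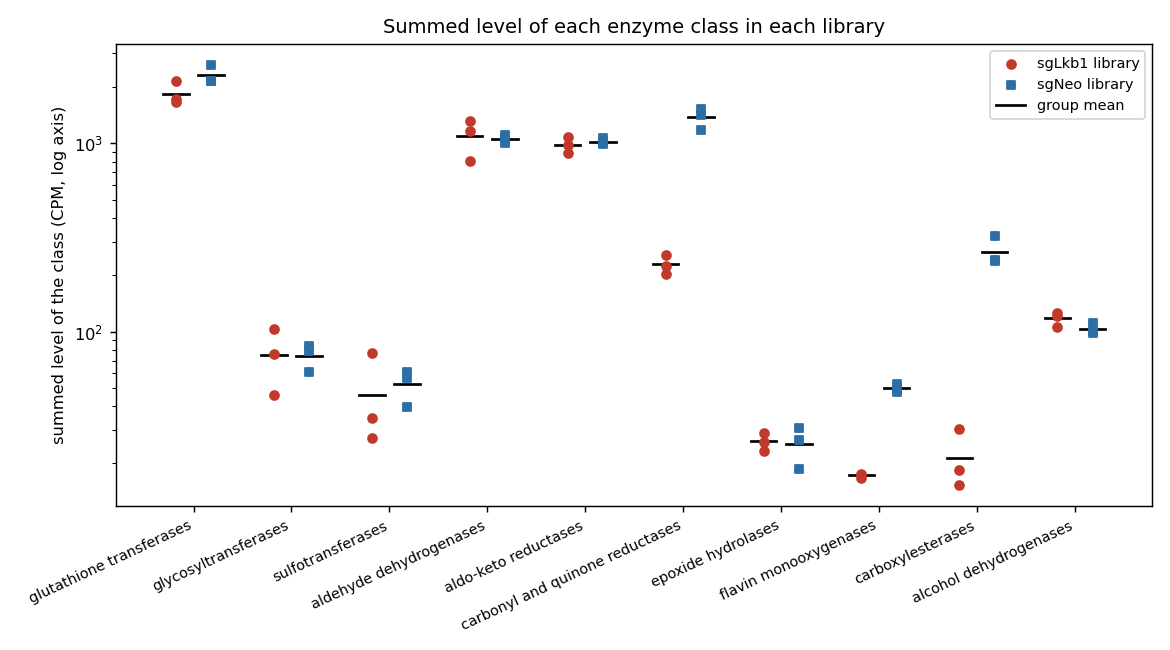
Summed level of all genes of each enzyme class in each library, in CPM on a log axis, with sgLkb1 left of sgNeo and a line at the mean of the 3 libraries of a group. The sgLkb1 libraries lie below the sgNeo libraries with wide gaps for the carbonyl and quinone reductases, the flavin monooxygenases and the carboxylesterases, while the sums of the 7 other classes overlap.

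Promoter sequences were available for 121 of the 144 genes in the RefSeq table for GRCm38.p6, each covering 250 bases before to 50 bases after a transcription start. They were searched on both strands for TGACNNNGC, the core of the antioxidant response element bound by NRF2, and for GCGTG, the core of the dioxin response element of the aryl hydrocarbon receptor. The matches of both motifs in Aldh1a2 do not overlap. TGACNNNGC occurred in 8 of the 121 genes (6.61%), against 13.99% of the 27025 genes in the table, and GCGTG in 29 of 121 (23.97%), against 35.2%. Among called genes with a promoter, TGACNNNGC was in 1 of 5 higher and 2 of 16 lower ones, and GCGTG in 2 of 5 higher and 4 of 16 lower ones. The 3 called genes with the first motif are shown with Cbr2, which had the largest fall and has neither; capitals mark the matches, each sequence is 5′ to 3′ on the gene's strand, and a match is only a description of the letters.

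Aldh1a2 at chr9:71215539-71215838, plus strand, has TGACNNNGC 112 bases before the start and GCGTG 128 bases before it. Mgst1 at chr6:138140277-138140576, plus strand, has its match 56 bases before the start on the other strand. Akr1c19 at chr13:4233490-4233789, plus strand, has its match 7 bases after the start on the other strand. The annotated span of this gene starts earlier, at 4228700 (GENCODE M21). Cbr2 is shown at chr11:120731972-120732271, minus strand. The promoters of these 4 genes came to 1500 bases in all, so not every one is shown.
Aldh1a2: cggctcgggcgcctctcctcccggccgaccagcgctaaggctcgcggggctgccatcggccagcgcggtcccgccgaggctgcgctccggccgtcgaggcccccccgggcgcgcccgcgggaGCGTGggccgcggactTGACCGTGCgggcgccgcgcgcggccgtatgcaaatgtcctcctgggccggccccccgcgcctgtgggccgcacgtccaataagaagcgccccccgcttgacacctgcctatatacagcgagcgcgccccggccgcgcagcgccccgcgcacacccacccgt
Mgst1: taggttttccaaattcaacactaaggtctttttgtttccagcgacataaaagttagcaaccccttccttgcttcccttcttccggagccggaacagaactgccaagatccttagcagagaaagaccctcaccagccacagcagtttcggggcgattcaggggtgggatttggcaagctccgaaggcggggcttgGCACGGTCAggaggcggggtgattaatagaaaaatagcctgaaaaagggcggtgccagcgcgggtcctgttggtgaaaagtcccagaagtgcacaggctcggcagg
Akr1c19: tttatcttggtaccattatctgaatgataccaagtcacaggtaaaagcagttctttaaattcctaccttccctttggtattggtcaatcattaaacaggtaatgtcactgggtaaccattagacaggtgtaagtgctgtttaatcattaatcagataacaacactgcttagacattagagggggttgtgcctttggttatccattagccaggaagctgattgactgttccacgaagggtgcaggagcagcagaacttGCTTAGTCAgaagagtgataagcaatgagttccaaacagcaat
Cbr2: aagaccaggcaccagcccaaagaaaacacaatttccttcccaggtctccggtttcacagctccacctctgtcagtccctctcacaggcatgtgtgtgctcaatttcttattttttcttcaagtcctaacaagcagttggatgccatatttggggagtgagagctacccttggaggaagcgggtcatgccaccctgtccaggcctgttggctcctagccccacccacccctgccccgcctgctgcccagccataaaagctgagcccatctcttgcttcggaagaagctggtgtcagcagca

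The greatest fall was that of a carbonyl reductase. Cbr2, a carbonyl reductase abundant in mouse lung (chromosome 11, 120729489 to 120732114, minus strand, GRCm38), was at 37.4, 31.8 and 63.1 CPM in sgLkb1, against 1415, 1048 and 1293 CPM in sgNeo. Every sgNeo library held many times the level of any sgLkb1 library (edgeR log2 fold change -4.83 with SE 0.32, adjusted p = 0.000243). Of its exonic 50-base words, 12.1% occur also in Gm11771. Cbr3, a related NADPH-dependent reductase, was higher, with 29.0, 23.8 and 23.6 CPM in sgLkb1 against 11.2, 13.8 and 14.2 CPM in sgNeo (edgeR log2 fold change 0.97 with SE 0.19, adjusted p = 0.0118). Its neighbour on chromosome 16, Cbr1, averaged 60.8 ± 7.11 CPM in sgLkb1 and 52.0 ± 6.00 CPM in sgNeo (SD, n = 3 each) and was not called (edgeR adjusted p = 0.382). Nqo2, a quinone reductase that uses dihydronicotinamide riboside, was at 79.3, 63.4 and 45.1 CPM in sgLkb1 and at 34.8, 39.0 and 35.8 CPM in sgNeo (edgeR log2 fold change 0.78 with SE 0.21, adjusted p = 0.0421). The better known NRF2 target Nqo1 was low in both groups, with 8.10, 4.41 and 2.47 CPM in sgLkb1 and 1.00, 2.87 and 1.43 CPM in sgNeo, and was not called (edgeR adjusted p = 0.116). It was called higher by DESeq2 (log2 fold change 1.52, adjusted p = 0.0415) and by edgeR without a count filter (1.53, adjusted p = 0.0326). Calls were lost for Cbr3 without sgNeo replicate 1 or 2 (edgeR adjusted p = 0.057 and 0.0528). That of Nqo2 was lost in all such fits but the one without sgLkb1 replicate 3 (edgeR adjusted p up to 0.14), and 17.5% of its exonic words are shared with Serpinb6a on the other strand.

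Of 19 tested aldehyde dehydrogenases 3 were higher (15.8%) and 4 lower (21.1%), against 7.05% and 8.60% of all genes tested. Among the higher ones were 2 of the 3 retinoic acid producing enzymes. Aldh1a2, a retinaldehyde dehydrogenase of mesenchyme and mesothelium, was at 13.5, 138 and 57.0 CPM in sgLkb1, against 2.77, 0.405 and 0.916 CPM in sgNeo. All sgLkb1 libraries lay above all sgNeo libraries, with a spread of about an order of magnitude within sgLkb1 and replicate 2 at the top (log2 fold change 5.67, 95% interval 3.43 to 7.91, edgeR adjusted p = 0.00752). The log2 fold change was 4.74 without sgLkb1 replicate 2 and 6.70 without sgNeo replicate 1, and limma-voom did not call the gene (adjusted p = 0.0938). Aldh1a3, an epithelial retinaldehyde dehydrogenase, reached 191, 489.8 and 417 CPM in sgLkb1, against 63.1, 104 and 94.5 CPM in sgNeo (edgeR log2 fold change 2.07 with SE 0.36, adjusted p = 0.0077). Aldh1a1, the third enzyme of this kind, was at 40.8, 19.9 and 28.1 CPM in sgLkb1 and 21.5, 15.9 and 21.1 CPM in sgNeo, overlapping, and was not called (edgeR adjusted p = 0.181). Aldh1a3 was 75.6% to 83.1% of the summed CPM of these 3 genes in sgLkb1 libraries and 72.2% to 86.4% in sgNeo libraries. These shares are not corrected for gene length. In CPM per kilobase of exon, Aldh1a3, Aldh1a2 and Aldh1a1 averaged 79.3, 30.7 and 5.99 in sgLkb1 and 18.9, 0.602 and 3.95 in sgNeo. The summed CPM of the 3 genes, chosen after its values were seen, was 245, 648 and 503 CPM in sgLkb1. In sgNeo it was 87.4, 120.1 and 116 CPM, a ratio of 4.31.

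Mesothelium and fibroblasts are known to express Aldh1a2, and their markers are given beside it. The cells were sorted as GFP positive, and the purity of that sort was not tested. The summed mesothelial level was 818, 1285 and 1096 CPM in sgLkb1, highest in replicate 2, against 172, 192 and 428 CPM in sgNeo. Nearly all of it was Msln, which is also known from tumour cells. All 5 tested mesothelial markers had log2 fold changes above 0, with a median of 3.21. The defining mesothelial genes Upk3b and Lrrn4 were highest in sgLkb1 replicate 3, at 16.5 and 13.1 CPM, and were at 1.73 and 1.36 CPM in replicate 2. Aldh1a2 was highest in sgLkb1 replicate 2 and was at 57.0 CPM in replicate 3, above every sgNeo library. Wt1 was at 0 in 2 sgNeo libraries. The summed fibroblast level was 203, 279 and 1418 CPM in sgLkb1 and 142, 53.8 and 42.4 CPM in sgNeo. Like Upk3b and Lrrn4, it was highest in sgLkb1 replicate 3. The part of these cells in the Aldh1a2 values was not tested, and in bulk RNA a change in the number of cells of a type and in the RNA per cell cannot be told apart.

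Aldh3a1, which oxidises aromatic and lipid-derived aldehydes, was higher, with 12.3, 23.1 and 16.3 CPM in sgLkb1 against 3.81, 5.59 and 6.33 CPM in sgNeo (edgeR log2 fold change 1.71 with SE 0.31, adjusted p = 0.00944). In the other direction, Aldh2, the mitochondrial enzyme that clears acetaldehyde, was at 188, 234 and 229 CPM in sgLkb1 and at 369, 336 and 441 CPM in sgNeo. The fall of -0.82 on the log2 scale, with SE 0.18, was the smallest of the 20 (edgeR adjusted p = 0.0178). Aldh4a1, of proline breakdown, averaged 20.7 ± 4.55 CPM in sgLkb1 and 49.5 ± 6.61 CPM in sgNeo (SD, n = 3 each; edgeR adjusted p = 0.00584), with 30.03% of its exonic words shared with the overlapping Gm21969. Aldh6a1, of valine breakdown, averaged 32.5 ± 7.92 CPM in sgLkb1 and 67.1 ± 12.6 CPM in sgNeo (SD, n = 3 each; edgeR adjusted p = 0.0166). Other mitochondrial members were not called. Of these, Aldh18a1 and Aldh1l2 lay lower without overlap, at log2 fold changes of -0.48 and -0.87 (edgeR adjusted p = 0.0961 and 0.161). Aldh1b1, which like Aldh2 oxidises acetaldehyde, lay the other way without overlap, at 0.636, 1.71 and 1.61 CPM in sgLkb1 against 0, 0.283 and 0.239 CPM in sgNeo (edgeR adjusted p = 0.0803). Aldh7a1, of lysine breakdown, and Aldh5a1, of GABA breakdown, both had a log2 fold change of -0.42 with overlapping groups (edgeR adjusted p = 0.216 and 0.41). Aldh1a7, the rodent neighbour of Aldh1a1 on chromosome 19, was at 33.3, 9.26 and 16.4 CPM in sgLkb1 against 65.1, 51.7 and 49.0 CPM in sgNeo. Its edgeR fit gave a log2 fold change of -1.49 with SE 0.41 (adjusted p = 0.0441), in the direction opposite to Aldh1a2 and Aldh1a3. With 1 library left out Aldh1a7 passed only without sgLkb1 replicate 1, at a log2 fold change of -2.09, and reached an edgeR adjusted p of 0.125 without sgNeo replicate 1. Aldh2 missed the threshold without sgLkb1 replicate 2 or sgNeo replicate 1 or 3, and Aldh6a1 without sgLkb1 replicate 2 or sgNeo replicate 1 or 2, with edgeR adjusted p up to 0.0625 and 0.066.

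**Figure D3:**
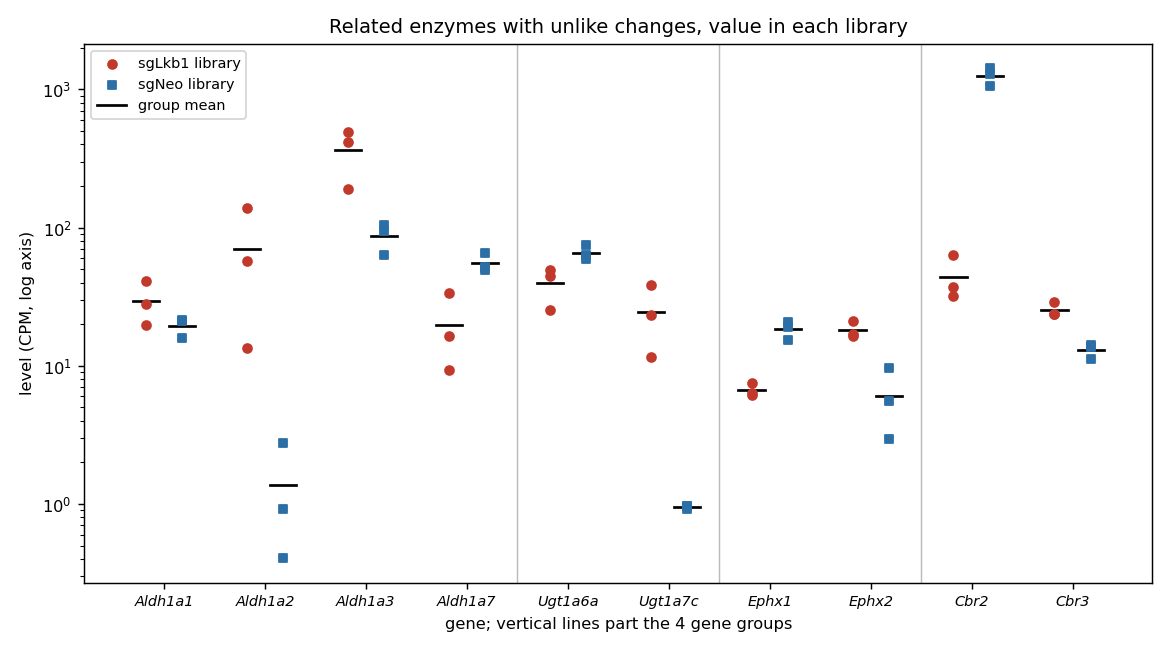
Level of related enzymes whose values moved differently, in CPM on a log axis, with a point for each library, sgLkb1 left of sgNeo and a line at the mean of 3 libraries. Aldh1a2, Aldh1a3, Ugt1a7c, Ephx2 and Cbr3 lie higher in sgLkb1, and Aldh1a7, Ephx1 and Cbr2 lie lower.

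Of 14 tested genes of retinoid metabolism outside the enzyme set, 1 was higher (7.14%, against 7.05% of all genes tested). Lower calls numbered 2 (14.3%, against 8.60% of all genes tested). Rdh10, which makes the retinaldehyde that the Aldh1a enzymes use, was at 173, 384 and 242 CPM in sgLkb1, against 92.6, 95.5 and 117 CPM in sgNeo (edgeR log2 fold change 1.39 with SE 0.29, adjusted p = 0.0151). Dhrs3, which turns retinaldehyde back to retinol, was lower (75.0 ± 5.73 CPM in sgLkb1 and 149.9 ± 9.30 CPM in sgNeo, SD, n = 3 each; edgeR adjusted p = 0.00343), as was Rdh11 (edgeR log2 fold change -0.66, adjusted p = 0.0385). With 1 library left out, Rdh11 passed in 0 of 6 fits (highest edgeR adjusted p 0.148), Rdh10 in all but those without sgNeo replicate 1 or 2 (0.074) and Dhrs3 in all 6.

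Of 12 tested aldo-keto reductases 0 were called higher and 1 lower, the lower share of 8.33% being near the 8.60% of all genes tested, and of 3 tested alcohol dehydrogenases none was called by edgeR in either direction. Akr1a1, the aldehyde reductase of ascorbate synthesis in mice, was at 565, 722 and 643 CPM in sgLkb1 and at 655, 628 and 663 CPM in sgNeo. The 95% interval of its log2 fold change ran between -0.39 and 0.36. Akr1b8, an aldose reductase relative, averaged 124 ± 15.2 CPM in sgLkb1 and 108 ± 9.97 CPM in sgNeo (SD, n = 3 each; edgeR adjusted p = 0.427). Akr1c19, a member of the hydroxysteroid dehydrogenase family, was the one called, with 9.76, 10.0 and 6.23 CPM in sgLkb1 against 26.9, 31.9 and 34.6 CPM in sgNeo (edgeR log2 fold change -1.84 with SE 0.23, adjusted p = 0.0022). The 5 other tested genes of its cluster on chromosome 13 were not called, and their groups overlapped. Akr1c12, Akr1c13 and Akr1c14 had log2 fold changes of -0.76, -0.49 and -0.82, and Akr1c18 and Akr1e1 of 0.82 and 0.25. Adh5, which oxidises the formaldehyde adduct of glutathione, averaged 111 ± 9.20 CPM in sgLkb1 and 95.6 ± 3.14 CPM in sgNeo (SD, n = 3 each), and Adh1, of retinol and ethanol oxidation, 3.63 ± 1.06 CPM in sgLkb1 and 5.15 ± 4.47 CPM in sgNeo (SD, n = 3 each).

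The epoxide hydrolases moved in opposite directions. Ephx1, the microsomal enzyme that opens epoxides of foreign compounds, was at 6.14, 6.38 and 7.55 CPM in sgLkb1, against 20.7, 15.3 and 19.0 CPM in sgNeo (edgeR log2 fold change -1.45 with SE 0.22, adjusted p = 0.00419). Ephx2, the soluble enzyme that hydrolyses fatty acid epoxides, was at 16.4, 20.9 and 16.9 CPM in sgLkb1, against 5.58, 2.96 and 9.60 CPM in sgNeo (edgeR log2 fold change 1.58 with SE 0.39, adjusted p = 0.031). On the scale of CPM per kilobase of exon, Ephx1 averaged 3.43 and Ephx2 7.28 in sgLkb1, and Ephx1 averaged 9.40 and Ephx2 2.43 in sgNeo, so the order of the pair differed between the groups. The summed CPM of the class overlapped, with a ratio of 1.03. Ephx2 missed the threshold without sgLkb1 replicate 2 or 3 and without sgNeo replicate 1 or 2, with a highest edgeR adjusted p of 0.102, and Ephx1 passed in all 6 such fits.

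All 5 flavin monooxygenases had log2 fold changes below 0, and 3 were called lower (60%, against 8.60% of all genes tested). Fmo2, the main form of lung, was at 4.09, 10.8 and 9.33 CPM in sgLkb1, against 27.1, 28.2 and 27.2 CPM in sgNeo (edgeR log2 fold change -1.77 with SE 0.34, adjusted p = 0.0111). Fmo1, next to it on chromosome 1, was at 3.79, 1.94 and 2.93 CPM in sgLkb1, against 7.82, 10.2 and 8.80 CPM in sgNeo (edgeR adjusted p = 0.0146). Fmo5, on chromosome 3, was at 2.89, 2.36 and 3.67 CPM in sgLkb1, against 6.54, 8.50 and 6.97 CPM in sgNeo (edgeR adjusted p = 0.0255). The groups did not overlap in any of the 3. Fmo1 was not called without sgNeo replicate 2 (edgeR adjusted p = 0.0688), and Fmo5 in 5 fits, all but that without sgLkb1 replicate 3 (up to 0.109).

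Of 5 tested carboxylesterases 2 were called lower (40%, against 8.60% of all genes tested), and their falls were the largest after Cbr2. The fold was 15.6 for Ces1d and 19.7 for Ces1e, against 28.4 for Cbr2. Ces1d, a triacylglycerol hydrolase (chromosome 8, 93166068 to 93197838, minus strand), was at 16.6, 11.6 and 21.5 CPM in sgLkb1, against 315, 232 and 227 CPM in sgNeo (edgeR log2 fold change -3.96 with SE 0.27, adjusted p = 0.000304). It made up 71.0% to 89.7% of carboxylesterase CPM in sgLkb1 and 96.0% to 97.8% in sgNeo. Its neighbour Ces1e, known as egasyn, had 8, 1 and 16 counts in sgLkb1 (0.196, 0.0262 and 0.459 CPM), against 5.05, 4.37 and 4.06 CPM in sgNeo (edgeR log2 fold change -4.30 with SE 0.77, adjusted p = 0.00891). Without sgLkb1 replicate 3 its log2 fold change was -5.28, a value set by few counts. Ces1f, the third tested gene of the cluster, was at 0.478 CPM or less in every library, and 0 of the 2 tested Ces2 genes were called by edgeR.

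Beside these falls the alveolar type 2 markers fell as well, with Sftpc at 8885, 5939 and 11248 CPM in sgLkb1 against 82967, 69548 and 75279 CPM in sgNeo (edgeR log2 fold change -3.13 with SE 0.31, adjusted p = 0.000885) and Sftpa1 at a log2 fold change of -3.42. Of 7 club cell markers 1 was higher (14.3%, Muc5b) and 1 lower (14.3%), against 7.05% and 8.60% of all genes tested. The lower one was the oxidase gene Cyp2f2 (92.3 ± 47.0 CPM in sgLkb1 and 225 ± 20.3 CPM in sgNeo, SD, n = 3 each, edgeR adjusted p = 0.0308). With 1 library left out, Muc5b passed in 1 and Cyp2f2 in 2 of 6 fits. Their summed level overlapped, at 585 to 836 CPM in sgLkb1 and 544 to 703 CPM in sgNeo, and the defining marker Scgb1a1 was not called (157, 64.1 and 531 CPM in sgLkb1 and 235, 374 and 253 CPM in sgNeo). The part of either cell type's transcripts in the lower enzyme levels was not tested.

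**Figure D4:**
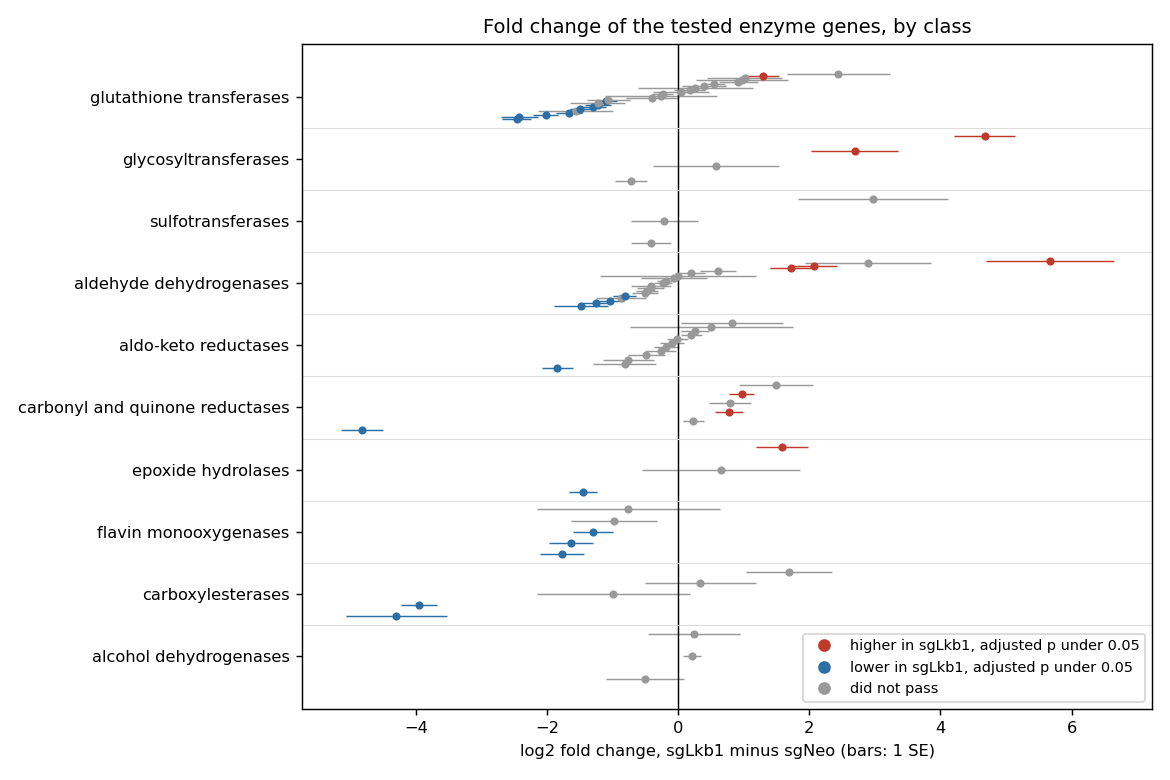
Log2 fold change (sgLkb1 minus sgNeo) of the 84 tested enzyme genes by class, with bars of 1 SE, coloured by whether the gene passed the threshold. The 5 flavin monooxygenase points lie below 0, the glutathione transferases spread to both sides with 8 called lower and 1 higher, and Cbr2, Ces1d and Ces1e lie farthest down.

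Of 24 tested glutathione transferases 8 were lower (33.3%) and 1 was higher (4.17%), against 8.60% and 7.05% of all genes tested. In the theta cluster on chromosome 10 all 3 tested genes were lower. Gstt1 was at 29.97, 20.5 and 29.9 CPM in sgLkb1, against 179, 125 and 140.0 CPM in sgNeo (edgeR log2 fold change -2.47 with SE 0.22, adjusted p = 0.000676). Gstt2 averaged 16.1 ± 3.87 CPM in sgLkb1 and 51.0 ± 3.73 CPM in sgNeo, and Gstt3 61.8 ± 14.4 CPM in sgLkb1 and 145 ± 1.60 CPM in sgNeo (SD, n = 3 each; edgeR adjusted p = 0.00176 and 0.00546). Gstt3 shares 12.5% of its exonic words with other genes, chiefly the overlapping Gm20441. In the mu cluster on chromosome 3, 2 of 7 genes were lower and 5 were not called, Gstm7 among them with a log2 fold change of 1.02 (edgeR adjusted p = 0.276). Gstm1, a major cytosolic transferase, was at 101, 108 and 94.2 CPM in sgLkb1, against 329.8, 417 and 485 CPM in sgNeo (edgeR log2 fold change -2.02 with SE 0.19, adjusted p = 0.000765), with 18.9% of its words shared, chiefly with Gstm2-ps1. Gstm4 averaged 7.93 ± 0.768 CPM in sgLkb1 and 19.6 ± 2.80 CPM in sgNeo (SD, n = 3 each; edgeR adjusted p = 0.00501).

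In the pi cluster on chromosome 19, Gstp3 was lower, with 3.47, 2.47 and 4.42 CPM in sgLkb1 against 16.5, 20.7 and 18.3 CPM in sgNeo (edgeR log2 fold change -2.42 with SE 0.28, adjusted p = 0.00142). Its neighbour Gstp1 was at 263, 273 and 264 CPM in sgLkb1 and 283, 296 and 363 CPM in sgNeo and was not called (log2 fold change -0.23, 95% interval -0.60 to 0.13). Of the exonic words of Gstp1, 33.7% occur also in Gstp2, and 49.1% of those of Gstp2 occur in Gstp1, so the split between them is uncertain, whereas Gstp3 shares none. Mgst1, a membrane-bound transferase and peroxidase, was at 166, 181 and 176 CPM in sgLkb1, against 523, 446 and 506 CPM in sgNeo (edgeR log2 fold change -1.50 with SE 0.15, adjusted p = 0.000957). Its relative Mgst3 lay the other way, at 121, 159 and 139 CPM in sgLkb1 and 87.9, 89.1 and 110.5 CPM in sgNeo, without overlap, and was not called (edgeR adjusted p = 0.0665). Gstz1, the maleylacetoacetate isomerase of tyrosine breakdown, averaged 36.2 ± 4.80 CPM in sgLkb1 and 77.5 ± 7.09 CPM in sgNeo (SD, n = 3 each; edgeR adjusted p = 0.00371). All 8 lower transferases passed whichever library was left out.

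Gsto1, an omega class enzyme that reduces dehydroascorbate and protein-glutathione disulfides, was the transferase that rose. It was at 486, 790.4 and 511 CPM in sgLkb1, against 209, 219 and 303 CPM in sgNeo (edgeR log2 fold change 1.29 with SE 0.25, adjusted p = 0.0117). Without sgNeo replicate 1 or 2 its edgeR adjusted p was 0.0557 or 0.0661. Gsta4, which conjugates the lipid peroxidation product 4-hydroxynonenal, lay above sgNeo in every sgLkb1 library at 221, 366 and 247 CPM in sgLkb1, against 103, 129 and 209 CPM in sgNeo, and did not pass (edgeR adjusted p = 0.0748).

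**Figure D5:**
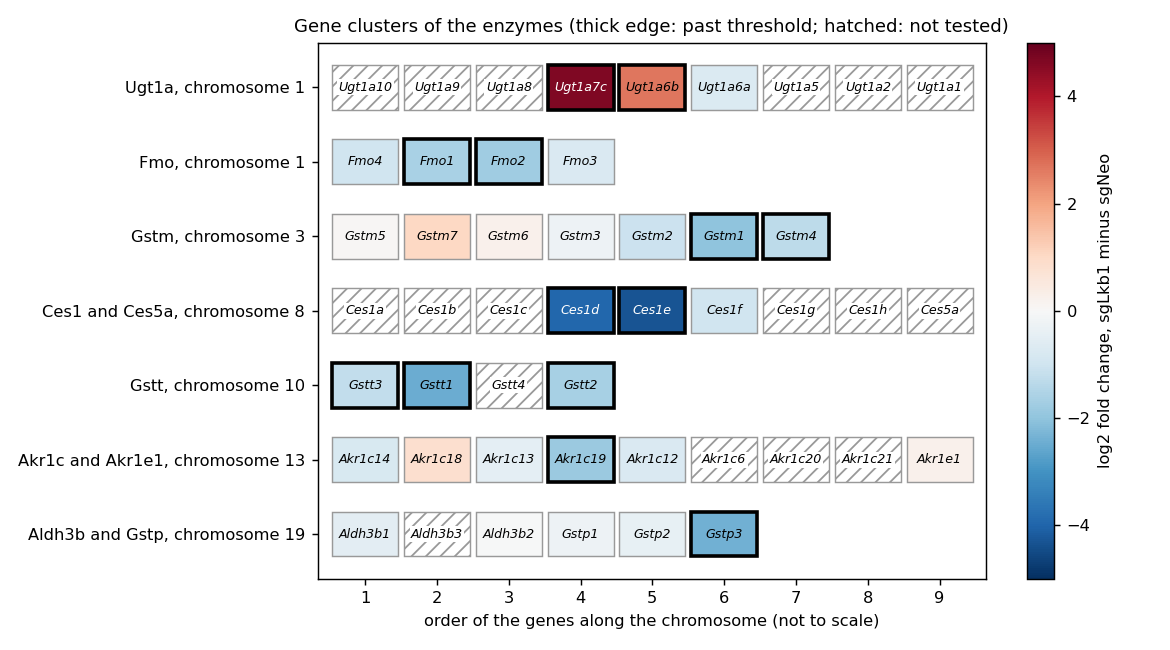
Enzyme genes in chromosomal order within 7 gene clusters, coloured by log2 fold change (sgLkb1 minus sgNeo), with a thick edge where the gene passed the threshold and hatching where it was not tested. Called genes sit beside genes that were not called, except in the Gstt cluster, where all 3 tested genes were lower.

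In the Ugt1a locus on chromosome 1 the makeup of the transcripts differed while the sums of the groups overlapped. This locus makes several UDP-glucuronosyltransferases, each from its own first exon joined to exons common to all. Ugt1a7c was at 11.5, 38.3 and 23.1 CPM in sgLkb1, against 0.963, 0.972 and 0.916 CPM in sgNeo, well apart (edgeR log2 fold change 4.67 with SE 0.47, adjusted p = 0.000913). Ugt1a6a, whose product conjugates phenols, was at 25.3, 49.5 and 44.7 CPM in sgLkb1, against 58.9, 74.7 and 63.4 CPM in sgNeo, and was not called (edgeR log2 fold change -0.72 with SE 0.25, adjusted p = 0.0919). Ugt1a7c thus made up 30.5%, 42.2% and 32.7% of the locus sum in sgLkb1, against 1.60%, 1.28% and 1.42% in sgNeo. The sum over the 9 genes of the locus, chosen after its values were seen, was 37.8, 90.8 and 70.7 CPM in sgLkb1 and 60.2, 76.1 and 64.6 CPM in sgNeo, with overlap and a ratio of 0.992. Ugt1a6b, at 0.709, 2.65 and 2.67 CPM in sgLkb1 against 0.401, 0.283 and 0.239 CPM in sgNeo, was called higher (edgeR log2 fold change 2.69, adjusted p = 0.0308). With 1 library left out Ugt1a6b passed only without sgLkb1 replicate 1 (highest edgeR adjusted p 0.114), and limma-voom did not call it (adjusted p = 0.129). Reads in the common exons had to be divided between these genes by the counting program: 79.8% of the exonic words of Ugt1a6b, 53.7% of those of Ugt1a7c and 52.1% of those of Ugt1a6a are shared, so each value depends on that division.

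Sulfotransferases gave 0 calls by edgeR in either direction among 3 tested. Sult1a1, which sulfates phenols, had 12.4, 44.7 and 12.7 CPM in sgLkb1 and 38.9, 19.3 and 22.7 CPM in sgNeo, overlapping, and Sult2b1, of cholesterol sulfation, averaged 17.8 ± 6.40 CPM in sgLkb1 and 23.8 ± 5.51 CPM in sgNeo (SD, n = 3 each). Sult1c2, a further phenol sulfotransferase, was at 3.18, 7.98 and 1.12 CPM in sgLkb1 and at 0.0802, 0.0810 and 1.39 CPM in sgNeo (edgeR adjusted p = 0.119).

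One sgNeo library, replicate 3, stood apart for several low enzymes. Among the 55 tested enzymes that were not called, 34 had their highest sgNeo value in replicate 3, and in 9 that value was over 2 times the next sgNeo value. The same was not counted over all genes tested, so whether it holds for the library as a whole cannot be told. A gene with a wide spread within sgNeo is less readily called, and among the called enzymes replicate 3 held the highest sgNeo value for 4 of the 9 higher and 4 of the 20 lower ones, while replicate 1 held it for 11 of those 20. The 9 uncalled enzymes with such a high replicate 3 value included Gsta1 at 12.7, 12.8 and 9.64 CPM in sgLkb1 and 1.36, 3.12 and 13.4 CPM in sgNeo, and Ugt2b34 at 7.88, 11.8 and 4.68 CPM in sgLkb1 and 0.602, 1.62 and 14.2 CPM in sgNeo. Without that library Gsta1, Ugt2b34, Sult1c2 and Gsta4 were called higher, with log2 fold changes of 2.38, 2.86, 5.60 and 1.25 (edgeR adjusted p = 0.0201, 0.0335, 0.025 and 0.0344). The value of Gsta1 is uncertain, since 90.5% of its exonic words also occur elsewhere, chiefly in Gm3776. These genes were singled out after their values were seen. The summed gastric and gut marker level was 608 CPM in the same library, against 170 and 164 CPM in the other sgNeo libraries and 1214 to 2409 CPM in sgLkb1. None of the 10 tested markers of that list was at 0 in sgNeo replicate 3, and the part of such cells or programme in these enzyme values was not tested.

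Within sgLkb1, replicate 2 held the highest value for 6 of the 9 higher enzymes and the lowest value for 11 of the 20 lower ones, and replicate 1 held the lowest value for 7 of the 9 higher ones. These orders were not counted over all genes tested, so whether they belong to the libraries as a whole cannot be told. The alveolar type 2 sum was lowest in replicate 2, at 12931 CPM.

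Genes that supply or control these reactions were counted against the same background of 7.05% higher and 8.60% lower among all genes tested. Of 24 NRF2 axis genes outside the enzyme set, 2 were higher (8.33%) and 2 lower (8.33%). NRF2 itself (Nfe2l2) averaged 424 ± 63.3 CPM in sgLkb1 and 410.4 ± 10.7 CPM in sgNeo, and its inhibitor Keap1 59.1 ± 12.6 CPM in sgLkb1 and 66.2 ± 3.16 CPM in sgNeo (SD, n = 3 each); neither was called (edgeR adjusted p = 0.879 and 0.591). Gpx2, a glutathione peroxidase, was higher at 152, 69.9 and 112 CPM in sgLkb1 against 39.1, 26.2 and 32.5 CPM in sgNeo (edgeR log2 fold change 1.77, adjusted p = 0.00611), as was the glutathione reductase gene Gsr (edgeR log2 fold change 1.32, adjusted p = 0.0112, or 0.0544 without sgNeo replicate 1). Osgin1, an oxidative stress response gene, was lower (edgeR log2 fold change -1.25, adjusted p = 0.00281), and so was the haem oxygenase gene Hmox1 (edgeR log2 fold change -0.82, adjusted p = 0.0162).

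Of 14 tested xenobiotic receptors and partners, 1 was higher (7.14%) and 3 were lower (21.4%). The aryl hydrocarbon receptor gene Ahr averaged 38.8 ± 0.994 CPM in sgLkb1 and 57.4 ± 12.6 CPM in sgNeo, and its partner Arnt 42.4 ± 1.80 CPM in sgLkb1 and 47.0 ± 3.58 CPM in sgNeo (SD, n = 3 each), and neither was called (edgeR adjusted p = 0.0754 and 0.519). Cebpa, a transcription factor of liver and alveolar type 2 cells, was at 31.9, 19.3 and 31.8 CPM in sgLkb1, against 98.3, 85.1 and 94.2 CPM in sgNeo (edgeR log2 fold change -1.74 with SE 0.22, adjusted p = 0.002). The electron carriers Cyb5a and Cyb5r3 were also lower (log2 fold changes -0.67 and -0.62, edgeR adjusted p = 0.0181 and 0.0351), and with 1 library left out Cyb5a passed in 1 of 6 fits. Hnf4a, a nuclear receptor of liver and gut, was higher at 67.1, 97.0 and 87.5 CPM in sgLkb1 against 29.4, 42.8 and 49.8 CPM in sgNeo (edgeR log2 fold change 1.04 with SE 0.23, adjusted p = 0.0194). Hnf4a was not called without sgLkb1 replicate 2 or sgNeo replicate 1 or 2.

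Of 22 tested genes of cosubstrate supply and export, 4 were higher (18.2%) and 1 lower (4.55%). The glutathione synthesis genes Gclc and Gclm, which encode the subunits of its first enzyme, averaged 1196 ± 489.9 and 64.0 ± 11.7 CPM in sgLkb1 and 1013 ± 31.0 and 54.2 ± 8.82 CPM in sgNeo (SD, n = 3 each), and neither was called (edgeR adjusted p = 0.609 and 0.439). Ggt5, which cleaves glutathione conjugates and leukotriene C4 outside the cell, was at 8.20, 4.28 and 8.58 CPM in sgLkb1, against 54.8, 56.1 and 50.7 CPM in sgNeo (edgeR log2 fold change -2.94 with SE 0.27, adjusted p = 0.000778). The conjugate exporter gene Abcc1, the transporter gene Abcb1b and the nucleotide-sugar carrier gene Slc35d1 were higher (log2 fold changes 1.00, 2.31 and 1.03, edgeR adjusted p = 0.023, 0.0314 and 0.0331). So was Papss2, which makes the sulfate donor (edgeR log2 fold change 1.30, adjusted p = 0.0374). Of these 4 calls none held without sgLkb1 replicate 2 or sgNeo replicate 1, and the log2 fold change of Abcb1b was 3.03 without sgNeo replicate 3.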

How the data were processed

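The authors deposited expected counts per gene for the 6 libraries. Per the submitters' processing notes, FastQC, STAR, RSEM and DESeq2 were used with build GRCm38; no version, strand setting or annotation release is stated for them. Libraries of the sorted cells were made with Nextera XT, per the labels' protocols. RSEM divides reads that match several genes, and reads of overlapping genes on opposite strands cannot be told apart here.

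these values were rounded to whole numbers, filtered with filterByExpr (15978 genes kept) and scaled with TMM. CPM values use the scaled library sizes. Genotypes were compared with edgeR 4.0.16 (R 4.3.3), by its quasi-likelihood test, two-sided, on genotype alone, and p-values were adjusted over all genes tested by Benjamini-Hochberg, with a threshold of 0.05. Dividing the size of a log2 fold change by the root of its F statistic gave the SE. Log2 fold changes and every difference are sgLkb1 minus sgNeo, and ratios are sgLkb1 over sgNeo. A count of 3 corresponds to 0.0734 to 0.0861 CPM in sgLkb1 and 0.119 to 0.121 CPM in sgNeo libraries, for counting error only.

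Alternatives were RLE and upper-quartile scaling, library sizes without the 10 most abundant genes, no count filter, a minimum of 1 CPM in 3 libraries, limma-voom (limma 3.58.1), DESeq2 1.42.0, robust dispersion, a replicate block, and leaving out each library. The enzymes and the 13 gene lists were chosen with earlier results of these data known. Genes were named if they were enzymes past the threshold, the 2 enzymes of each class with the highest mean CPM, Stk11, or the first 2 and the 3 called genes with the lowest p of a list. Other named genes, the sums over loci and the 4 promoters were chosen after their values were seen. All 144 enzymes matched GENCODE M21 (GRCm38), used for exon lengths and for shared exonic words of 50 bases.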

Additional observations from a re-analysis of the deposited data

How the results depend on the processing

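No enzyme and no listed gene that was recomputed changed direction with a change of call. All 29 calls remained under RLE and upper-quartile scaling, without the 10 most abundant genes, without a count filter, with robust dispersion and with DESeq2. Limma-voom did not call Ugt1a6b, Aldh1a2 and Nqo2, and a minimum of 1 CPM in 3 libraries left Ugt1a6b untested. DESeq2 added 8 enzymes and no count filter added 12. Scaling choices moved the median of all genes by at most 0.04 (log2).

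Higher enzymes numbered 15 with DESeq2 and 15 without a filter, and all genes called higher 1819 and 1917. Higher glutathione transferases numbered 4 and 2, higher sulfotransferases 1 and 1 and higher NRF2 axis genes 5 and 4. Without a filter there were also 4 higher carbonyl and quinone reductases, 1 higher carboxylesterase, 3 lower glycosyltransferases, and 2 higher and 1 lower retinoid genes. Of these glycosyltransferases, Ugt2b35 and Ugt2b38 rested on sgNeo replicate 3, with 50 and 32 counts there and at most 2 in any other library. Higher glycosyltransferases numbered 1 with that minimum and 1 with limma-voom, which called 1 higher carbonyl and quinone reductase. The library sizes without the 10 most abundant genes gave 1 lower retinoid gene. Without a filter more genes were tested than the 15978 of the main fit. The share of all genes called is not given for these settings, so the class counts cannot be set beside it.

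Same-numbered libraries deviated together with correlations of 0.13, -0.02 and 0.11, against -0.17 to 0.09 between unlike-numbered ones. Replicates 1 and 3 thus had the highest values and replicate 2 did not, so the numbers were not taken to pair the libraries. With a replicate block 28 of the 29 calls remained, without Ugt1a6b, and 7 enzymes were added. The replicate block gave 2 higher glutathione transferases, 1 higher and 1 lower glycosyltransferase, and 2 higher and 1 lower retinoid genes. The share of all genes called with the block is not given, so these counts cannot be set beside it.

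With one library left out, 4 of the 9 higher and 15 of the 20 lower enzymes passed in all 6 fits. Higher enzymes ranged between 4 and 11 and lower ones between 16 and 21, against 447 to 1368 higher and 682 to 1412 lower genes overall. The fewest higher enzymes, 4, came without sgNeo replicate 1 or 2. Higher calls ranged over 0 to 3 glutathione transferases, 1 to 2 glycosyltransferases, 0 to 1 sulfotransferases, 0 to 3 carbonyl and quinone reductases, 0 to 1 epoxide hydrolases, 1 to 4 NRF2 axis genes, 0 to 2 xenobiotic receptors, 0 to 5 cosubstrate genes and 0 to 2 retinoid genes. Lower calls ranged over 1 to 4 aldehyde dehydrogenases, 1 to 2 aldo-keto reductases, 1 to 3 flavin monooxygenases, 1 to 3 NRF2 axis genes, 1 to 3 xenobiotic receptors and 1 retinoid gene. The log2 fold change in the Stk11 check lay between -1.61 and -1.04. Enzymes without overlap and higher in sgLkb1 numbered 15 to 24. That count cannot fall below the 14 of the full set, since groups that do not overlap stay apart when 1 library is removed. The share over all genes was not counted with a library removed. Each fit with a library left out has fewer libraries, and the cause of the other changes was not tested. Sums over loci were recomputed as alternatives chosen after seeing the data, and none moved by more than the spread between libraries.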
